A study of Danio rerio with 35 samples.

Results

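Zebrafish embryos kept in cycloheximide, a drug that stalls ribosomes and so stops protein synthesis, were compared with untreated wild type (WT) embryos at 4 hours post fertilization (hpf). The comparison rests on 2 of the 35 libraries of the series: cycloheximide total RNA and WT total RNA, both at 4 hpf. The drug was in the bath from the 32-cell stage, and each of the 2 libraries held the RNA of 5 pooled whole embryos of the TUAB strain. Other libraries served to choose gene sets or as a scale. They were alpha-amanitin at 4 hpf (an RNA polymerase II inhibitor injected at the 1-cell stage), U1U2 MO at 4 hpf (an injected morpholino against splicing RNAs), cycloheximide at 6 hpf (the same bath), WT at 2 hpf, WT at 4 hpf as poly(A)+ RNA, and WT at 6 hpf in 3 libraries. The remaining total RNA libraries of 4 hpf, used only to show how far a gene varied, lacked transcription factors: the maternal-zygotic mutant MZpou5f1, morpholinos (MO) against Nanog, SoxB1 or both, these in the mutant, and a rescue with mRNA. With 1 library per condition at 4 hpf, the differences below have no replicate check at that stage, and "lower" or "higher" describes these libraries. A single test, given as an alternative, borrowed its spread from the 6 hpf replicates of WT and of Nanog + SoxB1 MO. Its fit also held the single 6 hpf libraries of alpha-amanitin, cycloheximide, Nanog MO, MZpou5f1, MZpou5f1 SoxB1 MO and MZpou5f1 Nanog + SoxB1 MO. All 27151 exon and 24124 intron entries that stand for single genes were used.

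An early zebrafish embryo lives on RNA and protein that its mother stored in the egg. Its own genome is silent through the first cleavages and is then switched on by stored transcription factors, among them Nanog, Pou5f3 and the SoxB1 protein Sox19b. A gene that is transcribed while translation is blocked needs only maternal proteins, whereas a gene that depends on an earlier zygotic product, or on a maternal message not yet translated, does not appear. Among the first products is the microRNA miR-430, which clears maternal messages.

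Total RNA was depleted of ribosomal RNA, and exon and intron levels were deposited in RPKM (reads per kilobase, scaled to library size). Absolute depth was not given, but the commonest ratio between the libraries at low values put cycloheximide at 2.58 times the depth of WT. Both libraries carried the embryonic regulators at high levels: nanog had 392 RPKM in cycloheximide and 598 RPKM in WT, pou5f3 121 and 157 RPKM, and sox19b 279 and 325 RPKM. A list of adult tissue genes, meant to look for RNA carried over from the mother, summed to 157 RPKM in cycloheximide and 197 RPKM in WT. Of these sums cfl1l alone made up 153 and 186 RPKM, and vtg1 was at 0 in cycloheximide and 2.79 RPKM in WT. The list summed to 163 RPKM in WT at 2 hpf, and whether any of it came from adult tissue was not tested.

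Most messages differed little. Ratios of cycloheximide over WT were taken as log2(RPKM + 0.5) for exons, which understates the change of low genes, and a gene was counted as lower or higher from 4-fold on. Of 13987 entries at 1 RPKM or more in at least one of the 2 libraries, 439 (3.14%) were at least 4-fold lower in cycloheximide and 182 (1.3%) at least 4-fold higher, with a median log2 ratio of 0.07. Together that was 4.44% of entries. Between pairs of WT replicates at 6 hpf, 0.806%, 1.08% and 1.45% of entries were 4-fold apart. At 2-fold the balance was the other way, with 1102 lower (7.88%) and 1263 higher (9.03%). A limma fit took its spread from the WT and the Nanog + SoxB1 MO replicates at 6 hpf and assumed that the 4 hpf libraries vary alike. It called 273 of 16540 genes lower (1.65%) and 61 higher (0.369%) at 4-fold and a Benjamini-Hochberg adjusted p under 0.05. Of the 439 entries lower by the 4-fold rule alone, 127 were among the 173 zygotic genes described next, and 301 were under 1 RPKM in WT at 2 hpf. The share of all 13987 entries under 1 RPKM in WT at 2 hpf was not computed.

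Genes that the embryo switches on itself were mostly low under cycloheximide, and most were higher there than under amanitin. The zygotic set was chosen in other libraries: 173 genes under 1 RPKM in WT at 2 hpf, at 5 RPKM or more in the WT poly(A)+ library of 4 hpf, and at least 4-fold lower in amanitin than in that poly(A)+ library. Their median level was 1.46 RPKM in cycloheximide, 0.056 RPKM in amanitin and 15.3 RPKM in WT. In cycloheximide 127 of 173 (73.4%) were at least 4-fold below WT, against 3.14% of all entries, with a median log2 ratio of -2.81 and quartiles of -3.66 and -1.92. The poly(A)+ library was also WT at 4 hpf, so the rule favours genes that are high on the WT side. All entries include maternal genes, which the rule leaves out. The median gene of the set kept 10.7% of its WT level, with quartiles of 3.98% and 20.4%. For amanitin, which the rule used, the median log2 ratio over the WT total RNA library was -4.77, and 155 genes lay 4-fold below WT (5.17% of all entries did). Levels were above those in amanitin, low by the rule, in 164 of the 173 genes. After adding 0.5 RPKM to both, the gap was at least 4-fold in 76 and less, or absent, in 97. The added 0.5 RPKM exceeds the amanitin median, so the 97 include genes farther apart in RPKM itself. One was chrd, with 1.31 RPKM in cycloheximide and 0.015 RPKM in amanitin. In cycloheximide 101 genes reached 1 RPKM, 12 in amanitin and 165 in WT. Fewer expressing cells and less RNA per cell cannot be told apart in whole embryos.

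**Figure D1:**
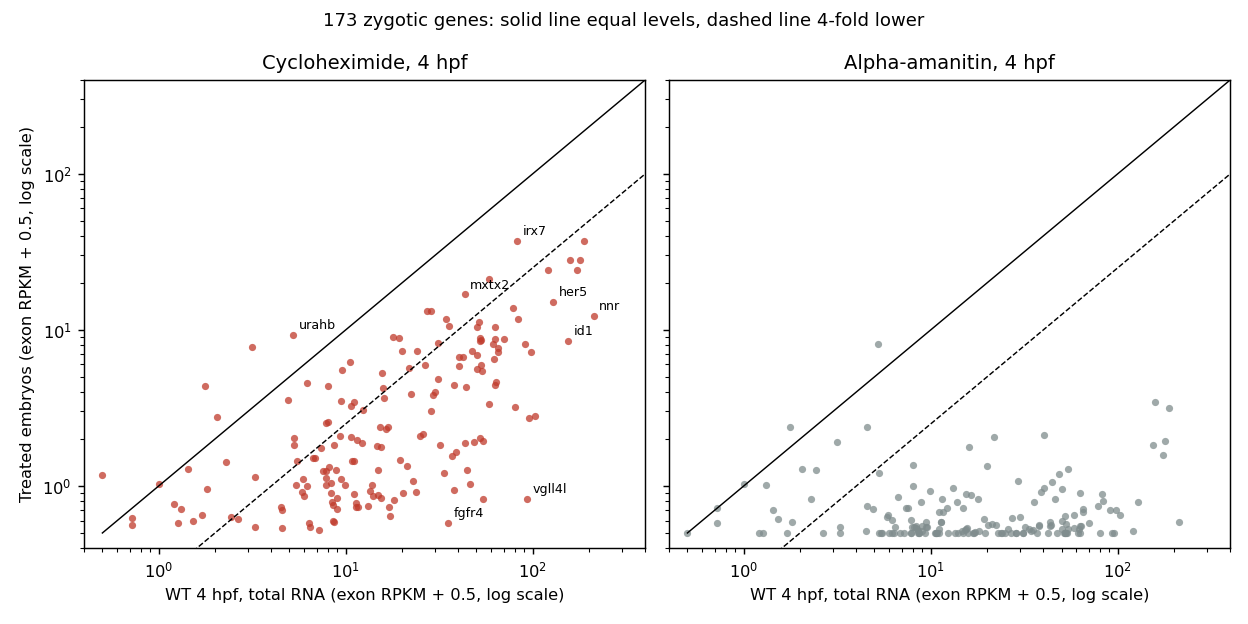
Exon level of each of the 173 zygotic genes in cycloheximide (left) and in alpha-amanitin (right), on the vertical axes, against WT at 4 hpf on the horizontal axes, all as RPKM + 0.5 on log scales, 1 library each. Under cycloheximide the points spread widely below the line of equal levels, 127 of them at or below the 4-fold line, while under amanitin most lie near the floor.

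The ratios spread over a wide range, and whether they form separate groups was not tested. In cycloheximide 30 of the 173 genes were 16-fold or more below WT, 97 were 4- to 16-fold below, 27 were 2- to 4-fold below, 16 were within 2-fold, and 3 were 2-fold or more above. The 16 genes within 2-fold were mostly weak in this WT library, with a median of 1.59 RPKM in cycloheximide and 1.68 RPKM in WT, and 8 genes of the set were under 1 RPKM in both. The 30 genes farthest below WT were strong in it, with medians of 0.645 RPKM in cycloheximide and 37.7 RPKM in WT. Introns were listed for 150 of the 173 genes (86.7%), against 95.6% of all measured entries, and for 26 of the 30 lowest.

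The genes that lay lowest relative to WT included regulators and signalling genes of the early gastrula. The gene vgll4l, which encodes a transcription cofactor of the Vestigial-like family, had 0.331 RPKM in cycloheximide, 0 in amanitin and 92.9 RPKM in WT, so cycloheximide held 0.356% of WT (log2 ratio -6.81). The FGF receptor gene fgfr4 had 0.080 RPKM in cycloheximide, 0.022 RPKM in amanitin and 34.8 RPKM in WT. Its cycloheximide level was 0.230% of WT. The keratin gene krt18a.1, expressed in the outer epithelium of the embryo, had 0.330 RPKM in cycloheximide, 0.029 RPKM in amanitin and 53.8 RPKM in WT. The T-box gene tbx16, a regulator of mesoderm, had 0.140 RPKM in cycloheximide, 0.011 RPKM in amanitin and 16.8 RPKM in WT. These 4 genes were close to silent under cycloheximide, at under 1% of their WT level. The zinc finger gene zic2 (ENSDARG00000037178) had 0.772 RPKM in cycloheximide, 0.561 RPKM in amanitin and 43.7 RPKM in WT, so both inhibitors left about the same small amount. The gene asb11, an ankyrin repeat gene of neural progenitors, had 2.24 RPKM in cycloheximide, 0 in amanitin and 95.2 RPKM in WT.

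At the other end stood genes whose transcripts reached high levels under cycloheximide. How completely the bath stopped translation was not tested here. The Iroquois homeobox gene irx7 had the highest cycloheximide level of the named zygotic genes, 36.8 RPKM, with 0.382 RPKM in amanitin and 82.0 RPKM in WT. The homeobox gene mxtx2, a regulator of the yolk syncytial layer, had 16.5 RPKM in cycloheximide, 0.085 RPKM in amanitin and 42.8 RPKM in WT. The stress and cell cycle gene gadd45b (ENSDARG00000013576) had 20.6 RPKM in cycloheximide, 0.153 RPKM in amanitin and 58.0 RPKM in WT. In all 3 the cycloheximide level was far above amanitin and below WT, at 38.4% of WT in mxtx2 and 35.5% in gadd45b. The grainyhead factor gene grhl3, which acts in the outer epithelium, followed with 11.3 RPKM in cycloheximide, 0.017 RPKM in amanitin and 33.8 RPKM in WT. Some genes combined a high remaining level with a large gap to WT. The gene nnr had 11.8 RPKM in cycloheximide, 0.084 RPKM in amanitin and 212 RPKM in WT, and the hairy-related gene her5 had 14.7, 0.295 and 128 RPKM in the same order. The Krüppel-like gene klf17 had 13.4 RPKM in cycloheximide, 0.244 RPKM in amanitin and 77.6 RPKM in WT. The Nodal antagonist gene lft2 had 8.35 RPKM in cycloheximide and 18.8 RPKM in WT, and the maternal beta-catenin target dharma 5.77 RPKM in cycloheximide and 10.1 RPKM in WT. The related gadd45a, which was too weak in poly(A)+ RNA for the zygotic set, was above WT, with 5.60 RPKM in cycloheximide, 0 in amanitin and 3.00 RPKM in WT.

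**Figure D2:**
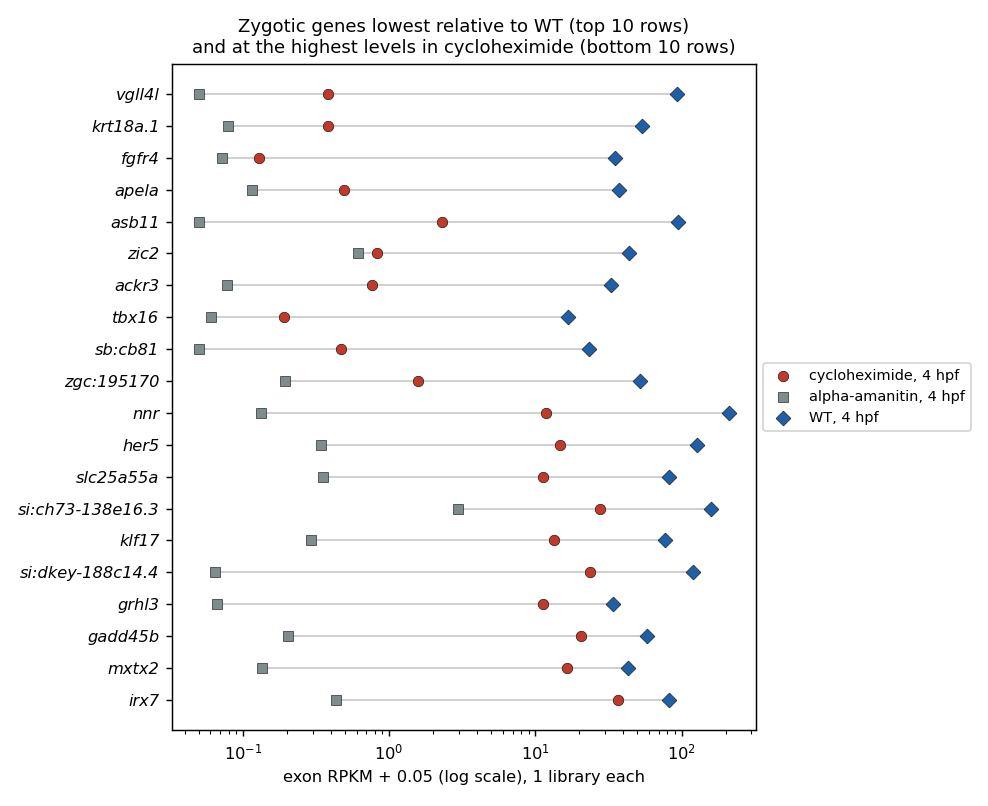
Exon RPKM + 0.05 (log scale) of 20 zygotic genes in cycloheximide, alpha-amanitin and WT at 4 hpf, 1 library each. In the 10 upper genes cycloheximide lies far to the left of WT, down to 0.080 RPKM for fgfr4, and in the 10 lower genes it lies between 11.3 and 36.8 RPKM.

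A wider rule, which used the cycloheximide library itself, listed 53 genes at 5 RPKM or more in cycloheximide, under 1 RPKM in WT at 2 hpf and at least 4-fold above amanitin. Of these, 45 were in the zygotic set and 23 had no symbol. In WT the level was higher than in cycloheximide for 46 of the 53, against 45.3% of all entries, and lower for 7. The median log2 ratio of cycloheximide over WT was -2.49, and 32 of 53 were at least 4-fold below WT, against 3.14% of all entries. The mir-430 hairpin entry headed them, with 183 RPKM in cycloheximide, 0.694 RPKM in amanitin, 0.374 RPKM in WT at 2 hpf and 1406 RPKM in WT at 4 hpf. Its cycloheximide level was 13.0% of WT, and the entry is poor in poly(A)+ RNA (2.91 RPKM in WT).

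Gene lists by role showed where the zygotic genes sit, and each count is to be read against the 3.14% lower and 1.3% higher of all entries, and at 2-fold against 7.88% lower and 9.03% higher. Among early Nanog-dependent genes, with mir-430, which were picked with these data known, 12 of 12 were at least 4-fold lower in cycloheximide, with a median log2 ratio of -4.16. Besides those above, blf, a zinc finger gene of convergence movements, had 12.8 RPKM in cycloheximide and 189 RPKM in WT, and polr3gla, a subunit gene of RNA polymerase III, 0.336 and 14.9 RPKM. Of 6 chemokine and apelin genes that guide cell migration, 5 were lower (median -3.59). The apelin receptor ligand gene apela had 0.439 RPKM in cycloheximide and 37.2 RPKM in WT, and the chemokine scavenger gene ackr3 (ENSDARG00000058179) 0.709 and 33.1 RPKM. The 2 entries named cxcr4, the chemokine receptor, had 3.66 and 19.7 RPKM in cycloheximide, against 80.7 and 88.7 RPKM in WT.

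Of 8 measured neuroectoderm entries, 5 were lower (median -2.64), with irx7 the best kept. Of the SoxB1 genes, the zygotic ones were lower, sox3 at 3.79 RPKM in cycloheximide and 43.3 RPKM in WT, and sox19a at 8.07 and 52.2 RPKM, while sox19b, which is loaded into the egg, differed by under 2-fold. In the list of enveloping layer and epidermis genes, 8 of 15 were lower and the median was -2.21. Among its keratins krt4 had 0.239 RPKM in cycloheximide and 12.6 RPKM in WT, and krt92 was at 0 in cycloheximide and 2.04 RPKM in WT. Some of its factor genes kept more, with klf2a at 10.1 RPKM in cycloheximide and 35.0 RPKM in WT. The adhesion gene epcam, a maternal message, stood apart at 689 RPKM in cycloheximide, 182 RPKM in amanitin, 618 RPKM in WT at 2 hpf and 291 RPKM in WT at 4 hpf.

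Axis and germ layer lists had medians nearer to 0. Of 14 dorsal organizer and Nodal genes, 6 were at least 4-fold lower and 11 at least 2-fold lower (median -1.39), while amanitin left 11 at least 4-fold below the same WT library. The notochord homeobox gene noto had 1.07 RPKM in cycloheximide and 36.6 RPKM in WT, the BMP antagonist gene chrd 1.31 and 14.2 RPKM, and the organizer homeobox gene gsc 0.769 and 8.37 RPKM. In contrast ndr1, a Nodal ligand gene with some maternal RNA, had 5.54 RPKM in cycloheximide, 3.79 RPKM in WT at 2 hpf and 13.6 RPKM in WT at 4 hpf. Of 10 ventral BMP and Wnt entries, 2 were lower (median -1.14). The BMP response gene id1 had 8.00 RPKM in cycloheximide, 1.32 RPKM in amanitin and 154 RPKM in WT, whereas the ligand gene bmp2 (ENSDARG00000041430) had 7.71 RPKM in cycloheximide, 0 in amanitin and 30.5 RPKM in WT. Of 11 mesoderm, endoderm and FGF genes, 4 were lower (median -1.03). The FGF feedback genes dusp6 and spry4 were among them, dusp6 with 0.833 RPKM in cycloheximide and 20.8 RPKM in WT, and spry4 with 0.183 RPKM in cycloheximide and 2.87 RPKM in WT. Of 5 yolk syncytial layer entries, 2 were lower, mxtx1 (0.493 RPKM in cycloheximide, 5.70 RPKM in WT) and the apolipoprotein gene apoc1 (0.412 and 5.31 RPKM).

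Cycloheximide is known to raise immediate early and other short-lived transcripts in many cell types. Here, of 30 such entries, 9 were at least 4-fold lower, none was 4-fold higher, and 3 were at least 2-fold higher (median -0.76). Amanitin left 16 at least 4-fold below the same WT library (median -2.34), against 5.17% of all entries. Those lower in cycloheximide included ier5, with 3.33 RPKM in cycloheximide and 28.7 RPKM in WT, the Myc family gene mych (16.2 and 84.3 RPKM), and mycn (0.236 and 10.9 RPKM). The 3 that were higher, named after their values were seen, were the decay factor gene zfp36l2 with 29.7 RPKM in cycloheximide and 7.76 RPKM in WT, the stress factor gene atf3 with 12.4 and 4.24 RPKM, and jund with 10.3 and 4.51 RPKM. Of 30 entries for factors and known targets of nonsense-mediated decay, which needs translation, 1 was lower and none 4-fold higher (median -0.42). The lower one was the splicing factor gene srsf5a, with 13.7 RPKM in cycloheximide and 67.6 RPKM in WT. Targets were not taken apart from factors, and levels were per gene rather than per splice form. Whether the targets of this decay rose was therefore not tested. No 4-fold difference was seen in 13 p53 response genes (median -0.48), and 1 of 13 heat shock and unfolded protein genes was lower (median 0.02), the small heat shock gene hspb1 with 2.16 RPKM in cycloheximide and 25.6 RPKM in WT.

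Housekeeping and stored messages had few 4-fold differences. None of 76 ribosomal protein genes was 4-fold apart (median -0.36), and 68 of the 76 were below WT in cycloheximide by some amount, against 45.3% of all entries. None of 27 tRNA synthetase and translation factor entries (median -0.23) and none of 15 chromatin entries (median -0.17) was 4-fold apart. Of 18 entries for RNA polymerases and nuclear RNA processing, polr3gla alone was lower (median -0.31). The 13 mitochondrially encoded genes had a median of 0.58, from -0.64 for mt-nd3 to 1.37 for mt-nd4. Of 27 cell cycle entries, 2 were lower (median -0.12), cdkn1ca (2.86 RPKM in cycloheximide, 17.9 RPKM in WT) and one of the 2 entries named mcm6 (0.756 and 7.04 RPKM). None of 18 maternal regulators of genome activation (median 0.15) was 4-fold apart. Of 27 entries of RNA decay and repression, mir-430 alone was lower (median 0.07).

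Introns show new transcription even where a stored maternal message fills the exons. An intron set was chosen without the 2 libraries: 1168 genes with at least 0.5 intron RPKM in U1U2 MO, where introns accumulate, and at least 4-fold more there than in amanitin and in WT at 2 hpf. Their median intron level was 0.441 RPKM in cycloheximide, 0.008 RPKM in amanitin and 2.12 RPKM in WT at 4 hpf, and it was 0 in WT at 2 hpf. Intron ratios used log2(RPKM + 0.1). The median log2 intron ratio of cycloheximide over WT was -1.96. In cycloheximide 566 of 1168 genes (48.5%) were at least 4-fold lower and 12 at least 4-fold higher, against 35.2% and 1.25% of the 3109 intron entries at 0.5 RPKM or more in one of the libraries. At 2-fold, 947 of the set were lower and 30 higher, against 72.7% and 3.06% of those entries. Between WT replicates at 6 hpf, 4.63% to 5.80% of introns were 4-fold apart. The deposited intron values of all entries summed to 3028 RPKM in cycloheximide, 747 RPKM in amanitin, 2244 RPKM in WT at 2 hpf and 10517 RPKM in WT at 4 hpf. Within the intron set the sums were 1101 RPKM in cycloheximide and 6390 RPKM in WT at 4 hpf. They were 47.6 RPKM in amanitin and 39.3 RPKM in WT at 2 hpf, both low by the rule.

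Exon ratios lay near the intron ratios where no maternal message was present, and near 0 where one was. In the 261 intron set genes under 1 exon RPKM in WT at 2 hpf, the median log2 ratio was -2.34 for introns and -1.92 for exons, and 113 genes were at least 4-fold lower in both. In the 907 genes with a maternal message the median was -1.90 for introns and -0.23 for exons. Exons were within 2-fold of WT in 356 of the 416 maternal genes whose introns were at least 4-fold lower, a share near that of all 907 (799 genes) and of all exon entries (11622 of 13987). The cytoskeletal actin gene actb2 had 0.124 intron RPKM in cycloheximide and 18.4 intron RPKM in WT, beside 302 and 337 exon RPKM. The angiomotin gene amotl2, a regulator of cell junctions, had 0.045 intron RPKM in cycloheximide and 10.1 in WT, beside 40.3 and 27.8 exon RPKM.

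**Figure D3:**
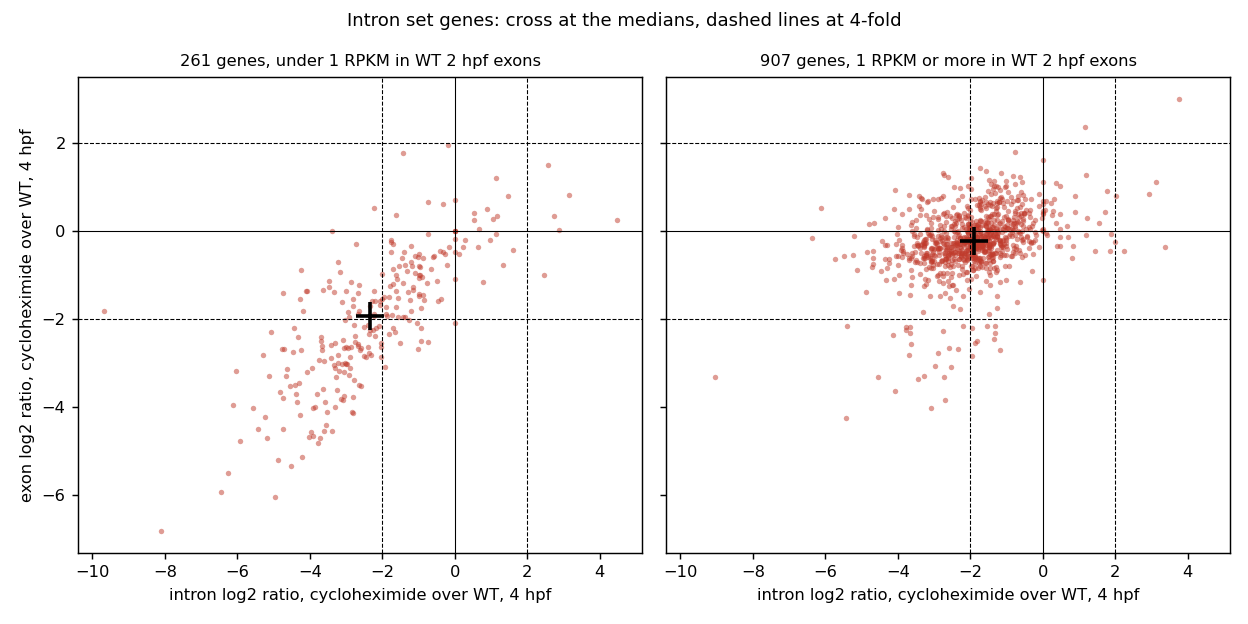
Log2 ratios of cycloheximide over WT at 4 hpf for the intron set, introns on the horizontal and exons on the vertical axis, for 261 genes without (left) and 907 genes with (right) a maternal message. The cross marks the medians, -2.34 and -1.92 on the left and -1.90 and -0.23 on the right, so both groups lie left of zero and the left one also lies below it.

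The maternal regulators were examples. The nanog gene had 8.47 intron RPKM in cycloheximide, 0.340 in amanitin and 31.6 in WT, while its exons held 65.5% of WT. Introns of pou5f3 had 1.05 RPKM in cycloheximide, 0.504 in amanitin and 11.9 in WT, with exons at 76.7% of WT. Introns of sox19b had 1.46 RPKM in cycloheximide, 0 in amanitin and 4.29 in WT. The beta-catenin gene ctnnb1 had 2.63 intron RPKM in cycloheximide, 0.069 in amanitin and 9.50 in WT. In these 4 genes the intron level in cycloheximide lay between amanitin and WT, as it did in 1050 of the 1168 intron set genes. Amanitin was low in that set by its rule. Among ribosomal protein genes, 47 of 67 with measured introns were at least 4-fold lower in introns (median -2.52), although none was in exons. Of all 3109 measured intron entries 35.2% were at least 4-fold lower and 72.7% at least 2-fold lower, so low introns were common outside these lists. Introns were also at least 4-fold lower in 7 of 9 translation factor entries and in 9 of 14 entries of polymerases and RNA processing, the list in which polr3gla was lower in exons too.

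Among the lowest intron ratios, tbx16 had 0.114 intron RPKM in cycloheximide and 12.9 in WT, and mex3b, an RNA-binding protein gene, 0.572 and 28.9. By contrast grhl3 had 13.2 intron RPKM in cycloheximide, 0 in amanitin and 17.3 in WT, and klf17 had 9.02, 0 and 17.4. In klf17 the intron level was 51.9% of WT and the exon level 17.2%. The irx7 introns had 2.69 RPKM in cycloheximide and 1.54 in WT, those of dharma 1.88 and 0.693, those of gadd45a 1.96 and 0.643, and those of fgf20, a ligand gene, 1.26 and 0.519. These 4 were above WT in introns, each by less than 4-fold, while irx7 and dharma were below it in exons. The opposite held for mxtx2, whose introns had 0.148 RPKM in cycloheximide, 0.263 in amanitin and 1.90 in WT, beside exons at 38.4% of WT. Between WT replicates at 6 hpf, 12.7% to 16.3% of introns were at least 2-fold apart. In the 126 zygotic set genes with at least 0.5 intron RPKM in one of the libraries, the median log2 ratio was -3.06 for introns and -2.82 for exons. Introns of 96 were at least 4-fold lower, against 35.2% of all measured intron entries.

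Maternal messages stood nearer to the 2 hpf state. The maternal cleared set held 2701 genes at 5 RPKM or more in WT at 2 hpf whose WT mean at 6 hpf was at least 4-fold lower. Relative to WT at 2 hpf their median log2 ratio was -0.10 in cycloheximide, -0.73 in amanitin and -0.47 in WT at 4 hpf. By 4 hpf, 145 of them (5.37%) were at least 2-fold below WT at 2 hpf in cycloheximide, 1030 (38.1%) in amanitin and 490 (18.1%) in WT. Among all 9576 genes at 5 RPKM or more in WT at 2 hpf these shares were 3.27%, 20.8% and 8.33%. The rule of the cleared set used WT at 2 hpf, the baseline of these shares, and a decline in WT. It favours genes that fall from that baseline and are low in WT at 4 hpf. Part of the excess over all genes, here and in the next comparison, may therefore come from the rule. Against WT at 4 hpf, 329 were at least 2-fold higher in cycloheximide (12.2%, beside 9.03% of all entries) and 40 at least 2-fold lower, with a median of 0.34. The 6875 other maternal genes had a median of -0.01, with 292 at least 2-fold higher. Over the 9576 genes the median absolute log2 distance from WT at 2 hpf was 0.23 for cycloheximide, 0.56 for amanitin and 0.35 for WT at 4 hpf. Cycloheximide was the lowest of the 12 total RNA libraries at 4 hpf, with Nanog MO next at 0.27. A cleared set median nearer to 0 than in WT was not particular to the drug. It ran from -0.18 in MZpou5f1 Nanog + SoxB1 MO to -0.40 in SoxB1 MO across the remaining libraries, except MZpou5f1 at -0.57. In 60.3% of these genes cycloheximide was nearer to WT at 2 hpf than to WT at 4 hpf, and the 62.9% of the cleared set was close to that background.

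Oocyte-derived messages were examples, with a list median of 0.35 close to the 0.34 of the cleared set. The gene btg4, which recruits the deadenylase complex to maternal messages, had 491 RPKM in cycloheximide, 71.0 RPKM in amanitin, 420 RPKM in WT at 2 hpf and 185 RPKM in WT at 4 hpf. The oogenesis-related gene org had 593 RPKM in cycloheximide, 66.8 RPKM in amanitin, 585 RPKM in WT at 2 hpf and 238 RPKM in WT at 4 hpf. The zygote arrest gene zar1l had 504, 62.3, 563 and 283 RPKM in the same order. All 3 had their 2 hpf level, or nearly so, in cycloheximide and less in both other 4 hpf libraries. The claudin gene cldnd had 2276 RPKM in cycloheximide, 491 RPKM in amanitin, 2350 RPKM in WT at 2 hpf and 1684 RPKM in WT at 4 hpf. Of 18 list members 3 were at least 2-fold above WT at 4 hpf, none 4-fold, and the amanitin median was -0.62. In 12 of the 18 cycloheximide was nearer to WT at 2 hpf than to WT at 4 hpf, a share near the background above. The cyclin gene ccnb1 had 1011 RPKM in cycloheximide and 1084 RPKM in WT at 4 hpf. Of 14 germ plasm entries 2 were lower, both of them cxcr4, which is also switched on in the zygote; nanos3 had 114 RPKM in cycloheximide and 89.6 RPKM in WT.

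**Figure D4:**
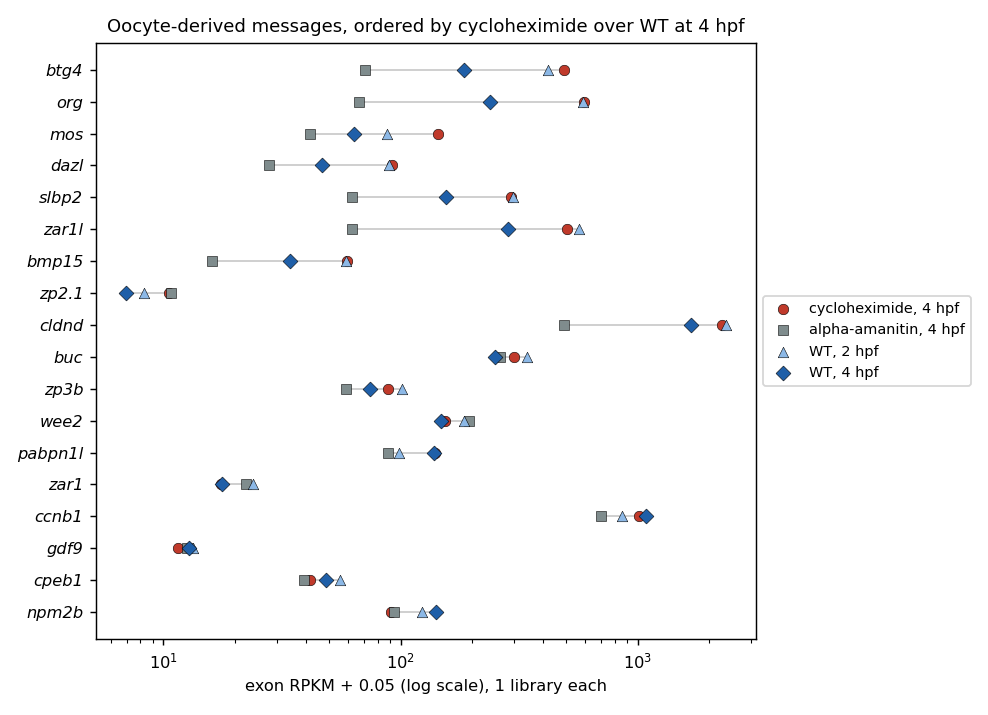
Exon RPKM + 0.05 (log scale) of 18 oocyte-derived messages in cycloheximide and alpha-amanitin at 4 hpf and in WT at 2 and 4 hpf, 1 library each, ordered by the ratio of cycloheximide over WT at 4 hpf. For btg4 and org cycloheximide lies at or above the 2 hpf WT level with amanitin lowest, and for zar1 and wee2 the 4 values lie close together.

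Differences of 4-fold also occurred outside the zygotic set. Of the 439 lower entries, 357 were at least 4-fold lower in amanitin too, which shares this WT library (5.17% of all entries were). Among the 439, 54 were at 5 RPKM or more in WT at 2 hpf. These were few for such genes: 9 of the 2701 cleared genes (0.333%) and 45 of the 6875 others (0.655%), against 3.14% of all entries. WT was the highest of the 12 libraries in 191 of the 439 and cycloheximide the lowest in 77. The 4-fold rule favours such extreme ranks, here and for the higher entries below, and their share over all entries was not computed. The ferritin gene fthl28 had 0.391 RPKM in cycloheximide, 35.1 RPKM in amanitin, 102 RPKM in WT at 2 hpf and 131 RPKM in WT at 4 hpf, and fthl30 had 0.036, 15.6, 31.0 and 40.7 RPKM in the same order. The other 10 total RNA libraries at 4 hpf had at least 35.1 RPKM of fthl28, so cycloheximide was lowest. Both belong to a family of similar ferritin genes, and how the authors' counting shared reads between copies is uncertain. In tmprss15 cycloheximide had 0.197 RPKM and WT 20.4 RPKM, with the other libraries from 0.047 to 23.0 RPKM. Of the 182 higher entries, 77 were at least 4-fold above this WT library in amanitin as well (1.28% of all entries were), and WT was the lowest of the 12 libraries in 47. The actin-binding gene rflnb had 101 RPKM in cycloheximide, 84.8 RPKM in amanitin, 52.6 RPKM in WT at 2 hpf and 0.144 RPKM in WT at 4 hpf, but 20.3 RPKM in the WT poly(A)+ library of that stage. The other 10 libraries ran from 0.058 to 123 RPKM of rflnb. The labels do not say which libraries share a clutch, and the part of clutch in such gaps, in rflnb or fthl28, was not tested. The sialidase gene neu3 had 19.3 RPKM in cycloheximide and 0.054 RPKM in WT, with a median of 11.3 RPKM in the other 10 libraries. In 80 of the 182 cycloheximide was highest of the 12, for example si:dkey-163f12.6, with 10.1 RPKM in cycloheximide, 0.049 to 3.43 RPKM in the other 10 libraries and 0.082 RPKM in WT. When the WT poly(A)+ library had to differ by 4-fold as well, 196 lower and 109 higher entries were left.

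At 6 hpf most zygotic genes were higher under the drug than at 4 hpf. This rise was measured from the 4 hpf cycloheximide library used above. Only the comparisons with WT at 6 hpf share no library with the 4 hpf comparison. The cycloheximide level was higher at 6 than at 4 hpf in 155 of the 173 genes (89.6%, against 50.8% of all entries), with a median of 7.83 RPKM at 6 hpf. In 92 genes it was under 2-fold below the WT level of 4 hpf or above it, against 19 genes in cycloheximide at 4 hpf. Both counts used the WT library of 4 hpf. Of all entries 7.88% were at least 2-fold lower in cycloheximide at 4 hpf. The share for 6 hpf against that WT library was not computed. Relative to the mean of the 3 WT libraries at 6 hpf, 79 of 173 were at least 4-fold lower (10% of all 15843 entries were), with a median log2 ratio of -1.73. The single cycloheximide library lay below all 3 WT libraries in 114 genes (65.9%, beside 34.4% of all entries) and above all 3 in 42 (24.3%, beside 53.3%). By the classes of 4 hpf, the median log2 ratio at 6 hpf was -3.68 in the genes 16-fold or more below WT, -1.70 in those 4- to 16-fold below, -0.75 in those 2- to 4-fold below, -0.85 in the 16 genes within 2-fold and 0.80 in the 3 above.

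Single genes differed widely. The gene asb11 had 97.0 RPKM in cycloheximide at 6 hpf, above its WT level of 4 hpf, while the 3 WT libraries at 6 hpf had 378, 417 and 430 RPKM. Still nearly silent at 6 hpf were vgll4l, with 1.04 RPKM in cycloheximide and 46.6, 52.6 and 74.4 RPKM in WT, and fgfr4, with 0.893 RPKM in cycloheximide and 147, 143 and 122 RPKM in WT. The keratin krt18a.1 had 8.39 RPKM in cycloheximide and 1290, 1160 and 1188 RPKM in WT. The gadd45a message was higher under the drug, with 66.5 RPKM in cycloheximide and 4.20, 10.1 and 6.64 RPKM in WT at 6 hpf, and irx7 had 165 RPKM in cycloheximide and 79.9, 71.5 and 60.6 RPKM in WT. In both the cycloheximide library stood above all 3 WT libraries. In the intron set the median intron level was 0.994 RPKM in cycloheximide and 3.08 RPKM for the WT mean, and 861 of 1168 genes (73.7%) were below all 3 WT libraries in introns, near the 78.3% of all intron entries at that stage.

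**Figure D5:**
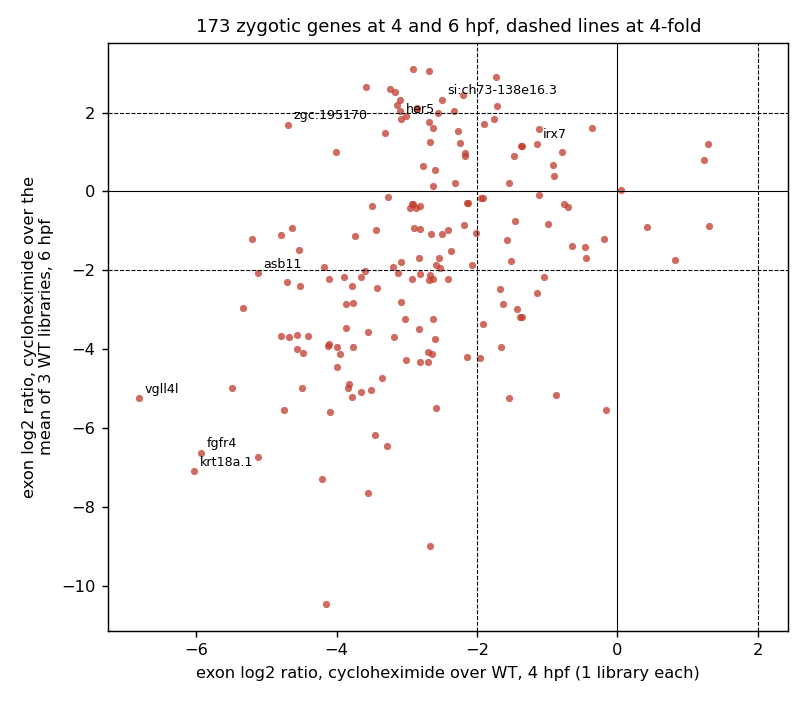
Exon log2 ratio of the 173 zygotic genes in cycloheximide over WT at 4 hpf (horizontal, 1 library each) and over the mean of 3 WT libraries at 6 hpf (vertical). Most points lie left of zero at 4 hpf, whereas at 6 hpf they run from far below WT, as in krt18a.1, to above it, as in her5.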

How the data were processed

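Exon and intron values were deposited by the authors as RPKM, per the file headers. Bowtie 0.12.9, TopHat2 2.0.7, CASAVA 1.8.2 and the build Zv9 (danRer7) are listed in the submitters' processing notes. Of 27997 exon and 24750 intron entries, those that joined overlapping genes were left out. Symbols were found by identifier for 72.9% of exon and 75.5% of intron entries, and list symbols with no match were tried without their paralog letter. RPS6 kinase genes were dropped from the ribosomal list. The tables hold no counts, so no counting interval was computed. Relative depth was the commonest ratio of WT over cycloheximide among genes under 1 RPKM in both, where values move in steps of 1 read.

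From these values, log2 ratios, medians and counts past a fold were computed in Python 3.11.15 with pandas 2.3.3. A fit in limma 3.58.1 (R 4.3.3) served as an alternative: 13 total RNA libraries, 16540 genes reaching 1 RPKM in 2 or more libraries, log2(RPKM + 0.5), 3 residual degrees of freedom from the WT (n = 3) and Nanog+SoxB1 MO (n = 2) replicates at 6 hpf, and Benjamini-Hochberg adjustment. It assumes that the 2 libraries at 4 hpf vary like those replicates. The fit was tested on simulated data. Nothing says that the replicates came from separate clutches, so their spread may be technical.

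Genes were named by a rule: with a symbol, the 10 lowest and 10 highest ratios and the 10 highest cycloheximide levels of the zygotic set; the 12 lowest and 12 highest ratios over exons at 5 RPKM or more; the 10 lowest and 10 highest intron ratios; the 8 highest ratios of the cleared set; of each list, the 6 highest levels and any past 4-fold; and nanog, pou5f3, sox19b and mir-430. The genes mt-nd4, zfp36l2, atf3, jund, zar1 and wee2 were named after their values were seen. Sets, lists and rule were chosen with earlier results of these data known. Promoter and mir-430 sequences were not analysed here.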

Additional observations from a re-analysis of the deposited data

Results flagged for a closer look

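Zygotic genes were marked that were at least 4-fold below WT in cycloheximide at 4 hpf but above all 3 WT libraries in cycloheximide at 6 hpf. This opposite direction was not tested, since cycloheximide had 1 library at each stage. At 6 hpf her5 had 72.1 RPKM in cycloheximide and 13.8, 22.2 and 23.4 RPKM in WT, a log2 ratio of 1.84. The gene zgc:195170 had 30.4 RPKM in cycloheximide and 9.03, 6.46 and 11.7 RPKM in WT (1.69), after 1.52 RPKM in cycloheximide and 51.9 RPKM in WT at 4 hpf. The gene ENSDARG00000095745 had 150 RPKM in cycloheximide and 20.6, 34.4 and 33.0 RPKM in WT (2.33), after 27.5 RPKM in cycloheximide and 158 RPKM in WT at 4 hpf. Of the 127 zygotic genes at least 4-fold lower at 4 hpf, 27 were above all 3 WT libraries at 6 hpf and 90 below all 3. Over all entries at 6 hpf, 53.3% were above and 34.4% below.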

How the results depend on the processing

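No paired analysis was possible because the comparison had 1 library on each side. Of 54 alternatives over 10 results, 33 kept the median within the replicate spread or the count within 1.5 times, and no median changed sign. The balance of lower and higher exon entries did turn at 2-fold. With a pseudocount of 0.1 RPKM, the zygotic median was -3.07, and 662 exon entries were lower and 363 higher; with 1 RPKM, 100 were higher. At 2-fold, 1102 were lower and 1263 higher. At 5 RPKM or more, 289 were lower and 108 higher. The limma fit with the spread of the 6 hpf replicates called 273 lower and 61 higher at an adjusted p under 0.05 and 4-fold. Chosen after seeing the data, a 4-fold gap to WT poly(A)+ RNA as well left 196 lower and 109 higher. For introns, a pseudocount of 0.5 RPKM gave 326 lower, 1 higher and a median of -1.40, a pseudocount of 0.05 gave 19 higher, 2-fold gave 947 lower and 30 higher, and a 1 RPKM minimum gave a median of -2.25. Of the cleared set 35 were 4-fold higher. With a 10 RPKM minimum in cycloheximide, 19 genes met the wider rule that had listed 53. For these changes the cause was not tested beyond the altered threshold, floor or number of genes. Leaving out 1 WT library at 6 hpf gave 78 to 82 zygotic genes 4-fold lower at 6 hpf. Of 246 alternative values of 82 named genes, 8 came under 4-fold. Depth limits low values most in WT, the shallower library.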
